A study of Mus musculus with 6 samples.

Results

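The 10 genes studied here bring iron into the cell, store it, export it, withhold it or sense it (Tfrc, Slc11a2, Fth1, Ftl1, Slc40a1, Slc11a1, Aco1, Ireb2, Fbxl5 and Lcn2), and were measured by RNA-seq in mouse primary microglia (PM). They were taken by symbol from a list that was chosen with earlier results of these data known. All 10 were found among the 24411 genes of the count tables. The libraries were 3 of PM given GSK-J4 (10 μM) and 3 of PM given GSK-J4 (10 μM) together with LPS (10 ng/ml), both at 4-h. LPS is the bacterial endotoxin that activates microglia through a Toll-like receptor, and GSK-J4 is an inhibitor of the histone demethylase JMJD3 that was present in every library. Each fold change is therefore the response to LPS with GSK-J4 on board, and PM without GSK-J4 were not analysed here. The cells were shaken off mixed glial cultures made from the pooled brains of pups at postnatal day 3, so a library is a culture and not an animal.

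Iron enters most cells as transferrin taken up by the transferrin receptor, crosses the endosomal membrane through a divalent metal transporter, and is kept in the shell of heavy and light chains that forms ferritin. Ferroportin, the product of Slc40a1, is the exporter that releases iron from macrophages and microglia. When iron is scarce, the iron regulatory proteins bind a hairpin called the iron-responsive element (IRE). A hairpin in a 5′ UTR then blocks translation, and hairpins in a 3′ UTR shield the mRNA from decay. Macrophages exposed to bacterial products are known for holding iron back from the medium.

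The hairpins of the listed genes are shown because some lie in a 5′ UTR and others in a 3′ UTR. A search of the annotated mRNAs for the letters CNNNNNCAGTGN, with at least 4 of the 5 bases on either side of the loop able to pair, found 1 in a 5′ UTR of 3 of the genes and at least 1 in a 3′ UTR of 2 more. The sequences below are from the GENCODE vM21 transcripts of the mm10 assembly, 5′ to 3′ on the strand of the mRNA and with T for U, and the capitals mark the bulged C and the 6 bases of the loop.
Tfrc 3′ UTR, chr16:32631219-32631248, plus strand: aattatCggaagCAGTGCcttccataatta
Tfrc 3′ UTR, chr16:32631598-32631627, plus strand: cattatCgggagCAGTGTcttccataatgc
Tfrc 3′ UTR, chr16:32631663-32631692, plus strand: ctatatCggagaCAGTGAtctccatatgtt
Tfrc 3′ UTR, chr16:32631710-32631739, plus strand: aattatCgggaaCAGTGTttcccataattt
Slc11a2 3′ UTR, chr15:100395152-100395181, minus strand: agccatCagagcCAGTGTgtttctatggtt
Fth1 5′ UTR, chr19:9982732-9982761, plus strand: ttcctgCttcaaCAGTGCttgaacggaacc
Ftl1 5′ UTR, chr7:45459778-45459807, minus strand: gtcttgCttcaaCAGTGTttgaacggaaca
Slc40a1 5′ UTR, chr1:45925464-45925493, minus strand: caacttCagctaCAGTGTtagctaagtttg

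The ferritin chains Fth1 and Ftl1 shared an upper stem, whereas that of Slc40a1 differed from both. The element of Slc11a2 had 4 of 5 upper stem pairs and the other 7 printed elements had 5 of 5. Over all genes with a coding transcript, 0.967% had such a match in a 5′ UTR and 4% in a 3′ UTR. Fixed windows were set to the longest 5′ UTR of Ftl1 (253 bases) and the longest 3′ UTR of Tfrc (2461 bases). Of the 9036 genes with a 5′ UTR at least that long, 0.598% had a match in its first 253 bases. Of the 3987 genes with a 3′ UTR at least that long, 6.45% had a match in its first 2461 bases. Matches also lay in the coding sequence of Slc11a1 and Lcn2. The UTRs of Aco1, Ireb2, Fbxl5, Slc11a1 and Lcn2 held no such match. A match is a description of the sequence, and binding was not measured.

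Between 2597505 and 3472716 fragments were counted on genes per library. The ribosomal feature Rn45s took 22.2 to 32.4% of them in GSK-J4 against 45.8 to 48.1% in LPS + GSK-J4, and the test was repeated without the ribosomal features. The treatment was visible in Nfkbia, the NF-kappa-B inhibitor gene induced by LPS, with between 193 and 414 counts in GSK-J4 against between 1745 and 1866 in LPS + GSK-J4. The microglial markers Itgam (184 to 222 CPM) and Aif1 (3.3 to 7.63 CPM) were present in every library. Levels are given as CPM, counts scaled to library size with TMM factors, 3 values in a row follow replicates 1, 2 and 3, errors are SD over 3 libraries, and a gene is said to have risen or fallen at an adjusted p of at most 0.01 in edgeR's quasi-likelihood test.

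Of the 10 genes, 9 had enough counts to be tested. Slc40a1 fell, 8 did not pass the test, and none rose. Without LPS + GSK-J4 replicate 3, 3 of them fell, Slc40a1, Slc11a2 and Fth1. Over all 10133 genes tested, 13.9% passed, 8.42% higher and 5.46% lower, so 1 gene of 9 is no more than a result about Slc40a1 itself. The median log2 fold change of the 9 genes was -0.20, with 8 negative values and 1 positive, beside a median of -0.0006 over all genes tested. At the thresholds of the study, which also ask for a log2 fold change of 1.5 or more in size, Slc40a1 again was the 1 gene called, beside 3.76% of all genes, 2.95% higher and 0.809% lower.

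**Figure D1:**
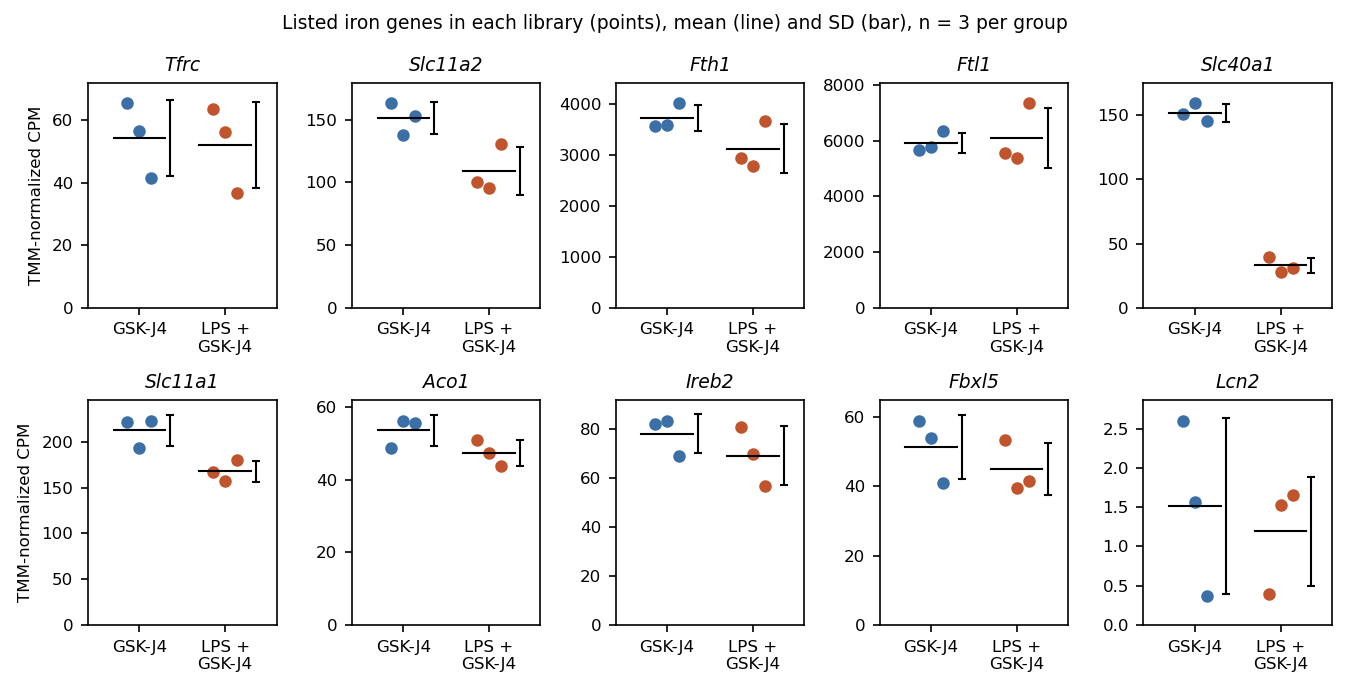
TMM-normalized CPM of the 10 iron genes (vertical axes, each from 0) in the 3 GSK-J4 and the 3 LPS + GSK-J4 libraries. Points are libraries, lines are means and bars are SD. Slc40a1 fell from 145 to 159 CPM to between 28.2 and 39.8 CPM, and the points of 7 genes overlap between the groups.

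The exporter had the largest fold change of the 9 genes tested. Slc40a1 (chr1:45908068-45926523, minus strand, mm10) had 640, 707 and 395 counts under GSK-J4 alone against 102, 74 and 75 counts with LPS. In CPM these were 151, 159 and 145 against 39.8, 28.2 and 31. All 3 LPS + GSK-J4 libraries lay far below the lowest GSK-J4 library, and all were well above the level of 3 counts (0.673 to 1.24 CPM) used as the limit of detection. Slc40a1 mRNA fell 4.59-fold, from 152 ± 6.95 to 33.0 ± 6.05 CPM (SD, n = 3), which is on the log2 scale a change of -2.20 (SE 0.15, adjusted p = 1.99e-08, edgeR). Ranked by log2 fold change it was number 17 from the lowest among the 10133 genes tested.

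Over 14 alternative settings the log2 fold change of Slc40a1 was between -2.36 and -2.10, and it passed in each. With the ribosomal features removed it was -2.20, but TMM scaling already limits the weight of such features, so little movement was possible. The Rn45s share differed between the groups, and its part in the change was not tested. Within a library, where no scaling enters, the log2 ratio of Slc40a1 to each of the 7 other iron genes chosen as partners (Slc11a2, Fth1, Ftl1, Slc11a1, Aco1, Ireb2 and Fbxl5) differed by between -2.23 and -1.72, lower in LPS + GSK-J4. These ratios were chosen after the data were seen. All of them share the Slc40a1 counts, so they describe the same change and are not separate tests of it. The groups did not overlap in any of them, and each gave an exact permutation p of 0.1 (two-sided), the smallest that 3 libraries against 3 allow.

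Microglial markers in sum were also lower with LPS, by less. The summed level of the 10 microglial markers was 3230 to 3300 CPM under GSK-J4 alone against 2510 to 2610 CPM with LPS, and 2 of the 10, Csf1r and Cx3cr1, fell. Over all genes tested, 5.46% fell. Csf1r, the receptor on which microglia depend for survival, had a log2 fold change of -0.46 (adjusted p = 0.0045, edgeR), and did not pass without GSK-J4 replicate 1, GSK-J4 replicate 2, LPS + GSK-J4 replicate 1 or LPS + GSK-J4 replicate 2 (adjusted p 0.0172 to 0.0458, edgeR). Cx3cr1, the fractalkine receptor, had -0.48 (adjusted p = 0.00354, edgeR), and did not pass without GSK-J4 replicate 1, GSK-J4 replicate 2 or LPS + GSK-J4 replicate 2 (adjusted p 0.0158 to 0.0244, edgeR). Relative to Csf1r in the same library, Slc40a1 was 0.200 ± 0.0111 in GSK-J4 against 0.0607 ± 0.0118 in LPS + GSK-J4 (SD, n = 3), a difference of -1.74 on the log2 scale with no overlap (exact permutation p = 0.1). Relative to Itgam, the difference was -1.99. In bulk RNA, fewer cells of a type and less RNA per cell cannot be told apart. Csf1r and Cx3cr1 were named after their values were seen.

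Markers of astrocytes, oligodendrocytes, neurons and endothelial cells in sum were higher with LPS. Over all genes tested, 8.42% rose and 5.46% fell. The summed level of the astrocyte list was 53.9 to 59.4 CPM under GSK-J4 alone against 131 to 159 CPM with LPS, and 3 of 7 tested genes passed the test, all higher. These were Gfap (log2 fold change 1.70), Gja1 (1.38) and Aqp4 (1.37). Slc1a2 (1.14), Aldoc (0.95), Slc1a3 (0.69) and Aldh1l1 (-0.16) did not pass. The oligodendrocyte lineage list was 213 to 243 against 389 to 439 CPM, with 5 of 7 passing, all higher, the neuron list 14.8 to 19.1 against 32.4 to 40.6 CPM, with 2 of 2 passing, both higher, and the endothelial list 13.9 to 21.7 against 25.8 to 62.4 CPM, with 1 of 2 passing, which was higher, and Cldn5 at 0 in every library. Of the tested oligodendrocyte lineage genes, Olig2 (log2 fold change 0.60) and Cnp (-0.008) did not pass. The neuron genes that passed were Tubb3 and Map2. Of the neuron genes not tested, Rbfox3 (0.52 against 0.257 CPM) and Syt1 (0.59 against 0.138 CPM) were lower and Snap25 (0.0786 against 1.07 CPM) was higher. The endothelial gene that passed was Cdh5 (12.3 against 35.2 CPM). Flt1 (4.63 against 6.84 CPM) did not pass, and Tek (0.28 against 0.515 CPM) and Pecam1 (1.01 against 0.79 CPM) were not tested. None of the 5 fibroblast genes passed (71.8 to 262 against 132 to 393 CPM). The neutrophil list summed to 2.2 to 4.71 against 2.29 to 5.46 CPM, with S100a9, Ngp and Camp at 0 in every library, and Hbb-bs of the erythroid list was at 0 throughout. The part of these cells in the iron gene results was not tested.

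The uptake genes differed between themselves. Tfrc (chr16:32608920-32632794, plus strand), the transferrin receptor, had 65.4, 56.6 and 41.4 CPM under GSK-J4 alone against 63.6, 56.1 and 36.8 CPM with LPS. The groups overlapped almost entirely, and in both the library numbered 3 was the lowest. Its log2 fold change was -0.07 (SE 0.20, adjusted p = 0.838, edgeR), and the sign turned without GSK-J4 replicate 1 (0.07) and without LPS + GSK-J4 replicate 3 (0.12).

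Slc11a2 (chr15:100387898-100425072, minus strand) encodes the divalent metal transporter that passes iron out of the endosome. Its level was 163, 138 and 153 CPM under GSK-J4 alone against 100, 95.8 and 131 CPM with LPS. All LPS + GSK-J4 libraries were lower than all GSK-J4 libraries, with replicate 3 the nearest. The log2 fold change was -0.47 (SE 0.14, adjusted p = 0.021, edgeR), which did not pass at 0.01. Without LPS + GSK-J4 replicate 3 it was -0.63 (adjusted p = 0.000425, edgeR), and DESeq2 gave -0.52 (adjusted p = 0.00823). It was nearer 0 without LPS + GSK-J4 replicate 2 (-0.39, adjusted p = 0.123), GSK-J4 replicate 1 (-0.42, adjusted p = 0.0882) or LPS + GSK-J4 replicate 1 (-0.42, adjusted p = 0.0707), all by edgeR.

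Slc11a1 (chr1:74375195-74386062, plus strand), the related transporter of the phagosome of macrophages, had 222, 193 and 223 CPM under GSK-J4 alone against 167, 157 and 180 CPM with LPS. The groups did not overlap. Its log2 fold change was -0.34 (SE 0.12, adjusted p = 0.0487, edgeR). Slc40a1, Slc11a2 and Slc11a1 were the 3 listed genes whose groups did not overlap, all lower with LPS, beside 18.4% of all genes tested in that direction. The same 3 had an adjusted p of 0.05 or less, beside 9.91% of all genes in that direction. Slc11a1 stayed at 0.05 or less with LPS + GSK-J4 replicate 3 left out (0.0159) but with no other single library left out (0.0654 to 0.194, edgeR), and it was 0.0504 among genes with at least 10 counts in every library. Slc11a2 was above 0.05 without GSK-J4 replicate 1, LPS + GSK-J4 replicate 1 or LPS + GSK-J4 replicate 2, and in these 3 fits Slc40a1 was the 1 listed gene left at that threshold. The ratio of Slc11a1 to Slc11a2 was 1.41 ± 0.0482 in GSK-J4 against 1.56 ± 0.16 in LPS + GSK-J4 (SD, n = 3), with overlapping groups (exact permutation p = 0.3).

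**Figure D2:**
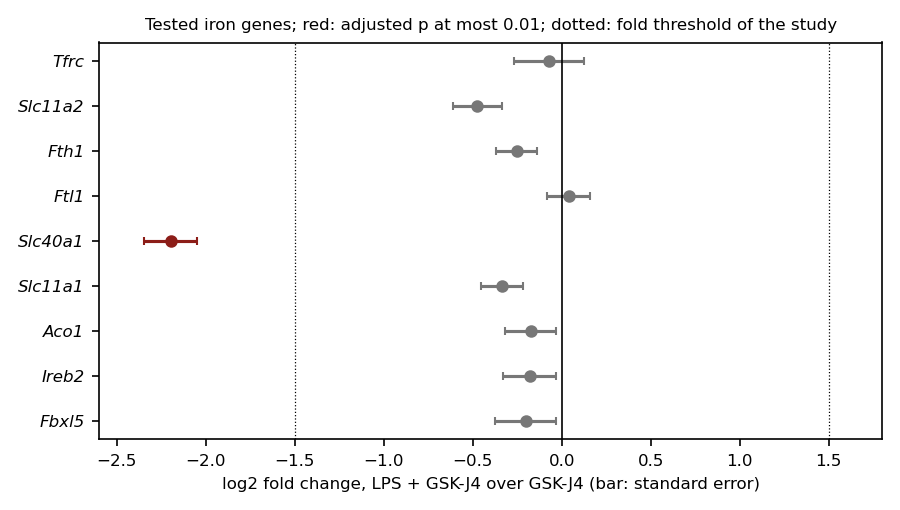
Log2 fold change of LPS + GSK-J4 over GSK-J4 (horizontal axis) for the 9 iron genes that were tested, with the standard error as a bar. Red marks an adjusted p of at most 0.01 and the dotted lines a log2 fold change of 1.5 in either direction. Slc40a1 (-2.20) stands apart from the others, which lie between -0.47 and 0.04.

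The ferritin genes were the most abundant of the list, per length and in counts. Fth1 and Ftl1 together took 1.71 to 1.88% of the counts outside the ribosomal features in GSK-J4 against 1.48 to 1.94% in LPS + GSK-J4. Fth1 (chr19:9980598-9985098, plus strand), the heavy chain with the ferroxidase site, had 3580, 3590 and 4020 CPM under GSK-J4 alone against 2950, 2780 and 3670 CPM with LPS. LPS + GSK-J4 replicate 3 lay within the range of GSK-J4 and the other two lay below it. The log2 fold change was -0.25 (SE 0.12, adjusted p = 0.134, edgeR), and without LPS + GSK-J4 replicate 3 it was -0.38 (adjusted p = 0.00292, edgeR), past the threshold. Without LPS + GSK-J4 replicate 2 it was -0.17 (adjusted p = 0.437, edgeR) and without LPS + GSK-J4 replicate 1 it was -0.21 (adjusted p = 0.298, edgeR).

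Ftl1 (chr7:45457944-45459884, minus strand), the light chain, had 5680, 5770 and 6340 CPM under GSK-J4 alone against 5560, 5370 and 7340 CPM with LPS. The groups overlapped, with LPS + GSK-J4 replicate 3 the highest of all. Its log2 fold change was 0.04 (SE 0.12, adjusted p = 0.86, edgeR), and the sign turned under 4 settings, among them without LPS + GSK-J4 replicate 3 (-0.12). There are 5 annotated pseudogenes with a symbol that begins with Fth and 2 with a symbol that begins with Ftl. Fragments that match more than a single place were not counted, so the absolute levels of Fth1 and Ftl1 are uncertain.

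The ratio of the chains had less spread within a group than either level. There were 0.629 ± 0.00614 Fth1 counts per Ftl1 count in GSK-J4 against 0.516 ± 0.0149 in LPS + GSK-J4 (SD, n = 3). The log2 ratio was -0.664, -0.684 and -0.656 under GSK-J4 alone against -0.915, -0.952 and -0.999 with LPS. Every LPS + GSK-J4 library was lower, replicate 3 included, with a mean difference of -0.287 on the log2 scale (exact permutation p = 0.1, the smallest possible, and 0.25 after Benjamini-Hochberg adjustment over the 5 ratios planned). These 5 ratios were planned with earlier results of these data known. The ratio sets the chains against each other and does not say which of them moved.

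**Figure D3:**
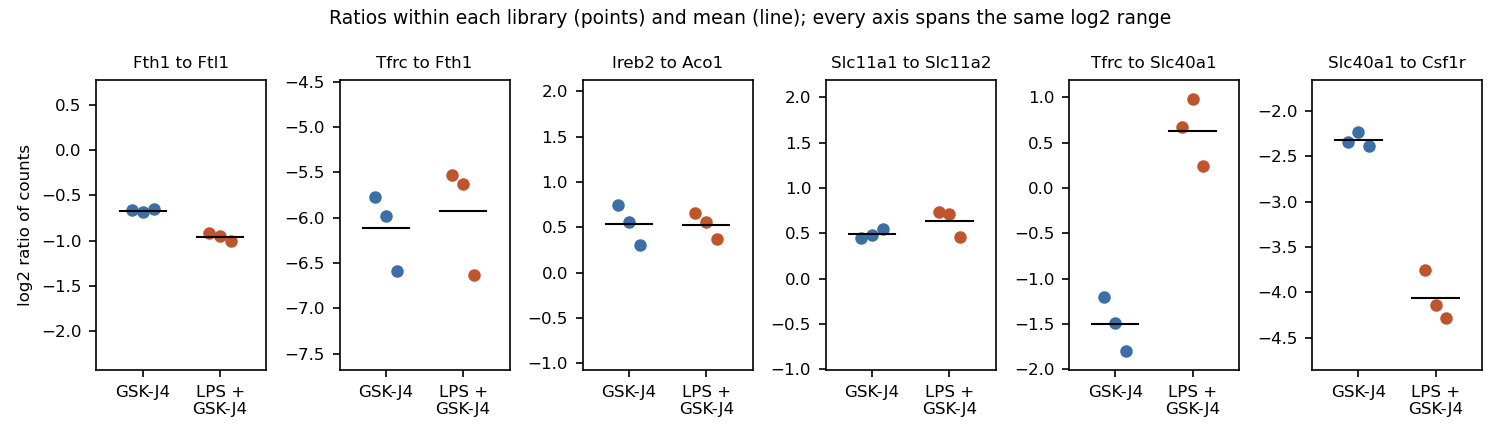
Log2 ratio of the counts of 6 gene pairs within each library (vertical axes, all spanning the same log2 range), with points for libraries and lines for means. Groups are apart for Fth1 to Ftl1 (mean -0.668 against -0.955), Tfrc to Slc40a1 (0.359 against 1.59 before taking logs) and Slc40a1 to Csf1r (-2.32 against -4.06), and overlap for the other 3 pairs.

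Setting the receptor beside the exporter, there were 0.359 ± 0.0732 Tfrc counts per Slc40a1 count in GSK-J4 against 1.59 ± 0.397 in LPS + GSK-J4 (SD, n = 3), a difference of 2.13 on the log2 scale without overlap (exact permutation p = 0.1, adjusted 0.25). The ratio of Tfrc to Fth1 differed by 0.189 on the log2 scale, with overlapping groups (exact permutation p = 0.6).

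The iron sensors gave no change past the test. Aco1 (chr4:40143081-40198338, plus strand), the iron regulatory protein that also serves as cytosolic aconitase, had 48.8, 56.3 and 55.7 CPM under GSK-J4 alone against 51.1, 47.3 and 43.8 CPM with LPS. Ireb2 (chr9:54863789-54912530, plus strand), its partner without an iron-sulphur cluster, had 81.9, 83.3 and 68.9 CPM against 80.8, 69.8 and 56.6 CPM. Fbxl5 (chr5:43744615-43821638, minus strand), the ubiquitin ligase subunit that removes Ireb2 when iron is plentiful, had 59, 53.9 and 41.1 CPM against 53.5, 39.7 and 41.7 CPM. In each of the 3 the groups overlapped. Their log2 fold changes were -0.18 (SE 0.14), -0.18 (SE 0.15) and -0.20 (SE 0.17), with adjusted p of 0.426, 0.435 and 0.444 (edgeR). The ratio of Ireb2 to Aco1 was 1.46 ± 0.22 in GSK-J4 against 1.45 ± 0.145 in LPS + GSK-J4 (SD, n = 3, exact permutation p = 0.9). Fbxl5 overlaps 3 other annotated genes on its strand and 2 on the opposite strand, so its level is less certain.

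Lcn2 (chr2:32384633-32388252, minus strand) encodes lipocalin, which binds bacterial siderophores and is a known product of cells activated by LPS. It had 11, 7 and 1 counts under GSK-J4 alone against 1, 4 and 4 counts with LPS. These few counts, at 0.367 to 2.6 CPM, overlapped between the groups and lay near the limit of detection, so Lcn2 was below the filter and was not tested. When tested without the filter or by DESeq2, the log2 fold change was between -0.50 and -0.44, with an adjusted p of 0.662 at the lowest. No rise of Lcn2 was seen, whereas the cytokine gene Il6, named after its values were seen, started from 11, 10 and 2 counts and rose to 65, 82 and 85 counts (adjusted p = 9.58e-08, edgeR). The study lists both Lcn2 and Il6 among genes that GSK-J4 lowered in LPS-treated PM, a comparison that was not made here.

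Levels per kilobase used the length of all annotated exons of a gene merged over its transcripts, 9000 bases for Slc40a1 and 3469 for Fth1. This length can exceed that of the main mRNA, so the order between genes and the gaps in it depend on the annotation. On this measure, the order of the levels in GSK-J4 was Ftl1 (4420 CPM per kb), Fth1 (1080), Slc11a1 (57.4), Slc11a2 (23.8), Slc40a1 (16.8), Aco1 (11.9), Tfrc (8.80), Ireb2 (8.23), Fbxl5 (5.27) and Lcn2 (0.576). Only the ranges of Tfrc and Ireb2 overlapped among neighbours. In LPS + GSK-J4, Slc40a1 moved from rank 5 to rank 9, at 3.67 CPM per kb, and its range overlapped with that of Fbxl5 (4.62). The other 9 genes kept their order, although Aco1 (10.5), Tfrc (8.43) and Ireb2 (7.29) overlapped with their neighbours there.

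The wider iron pathway was described by 7 lists with 96 genes between them, the 10 genes included. All 96 were in the files and 71 were tested, of which 5 rose and 5 fell, Slc40a1 among the latter. The median log2 fold change of the 71 was -0.175. The 62 tested genes outside the 10 had 22 positive and 40 negative values, beside 5062 and 5071 over all genes tested. Of the 62, 5 rose and 4 fell, and none was called at the thresholds of the study. Beside the 8.42 and 5.46% of all genes tested that rose and fell, these shares are near the background. The count that rose was 2 without GSK-J4 replicate 2, without LPS + GSK-J4 replicate 2 and without LPS + GSK-J4 replicate 3, and 3 without GSK-J4 replicate 1. The count that fell was 2 without LPS + GSK-J4 replicate 2 and 10 without LPS + GSK-J4 replicate 3.

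**Figure D4:**
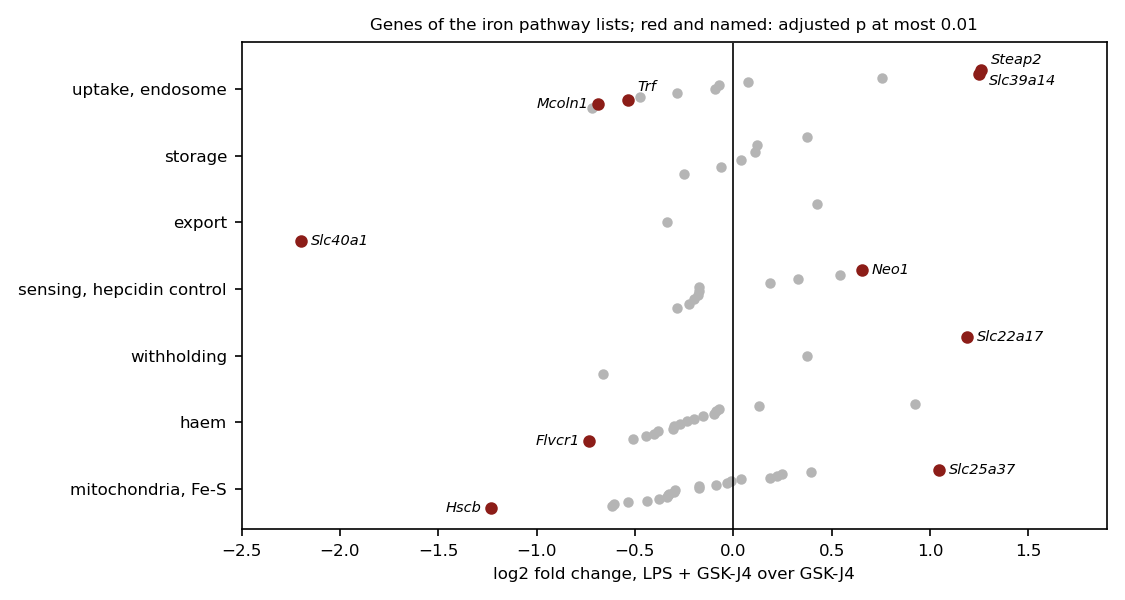
Log2 fold change of LPS + GSK-J4 over GSK-J4 (horizontal axis) for the tested genes of the 7 iron pathway lists (rows, points spread vertically for legibility), with those that passed the test in red. Slc40a1 (-2.20) is farthest from 0, and 5 named genes lie to the right and 5 to the left.

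Among the 11 tested genes of uptake and endosomal reduction, 2 rose and 2 fell. Slc39a14, a carrier of zinc and of iron not bound to transferrin, rose from 13.2 ± 1.26 to 31.8 ± 7.90 CPM (SD, n = 3, log2 fold change 1.25, adjusted p = 0.000394, edgeR). Steap2, a ferrireductase, rose from 5.25 ± 1.73 to 13.1 ± 3.61 CPM (adjusted p = 0.00661, edgeR), on 9 to 41 counts a library. Trf, the gene of transferrin itself, fell from 799 ± 2.75 to 551 ± 37.9 CPM (log2 fold change -0.54, adjusted p = 0.0011, edgeR). Trf is also made by oligodendrocytes, and the part of these cells in its level was not tested. Mcoln1, an endolysosomal channel that conducts iron, fell from 74.6 to 46.3 CPM (adjusted p = 0.0019, edgeR). Without LPS + GSK-J4 replicate 2 neither Trf (-0.49, adjusted p = 0.0165, edgeR) nor Mcoln1 (-0.64, adjusted p = 0.0187, edgeR) passed. Steap2 did not pass without GSK-J4 replicate 2 (adjusted p = 0.0186), GSK-J4 replicate 3 (0.0244), LPS + GSK-J4 replicate 2 (0.0245) or LPS + GSK-J4 replicate 3 (0.0189), all by edgeR. By DESeq2 with all libraries, Steap2 did not pass either (adjusted p = 0.0218).

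None of the 6 tested genes of storage and ferritin turnover passed, with values from -0.25 to 0.37 on the log2 scale. In the export list 3 genes were tested and Slc40a1 alone passed. Hamp, the gene of hepcidin that drives ferroportin to degradation, is in that list and was not tested, with 0 counts in each GSK-J4 library and 1, 2 and 3 counts with LPS, all at or below the limit of 3 counts. In the list of sensing and hepcidin control, Neo1 was the 1 gene of 10 that passed. Neo1, the hemojuvelin receptor neogenin, rose from 24.2 ± 0.848 to 38.2 ± 4.09 CPM (SD, n = 3, log2 fold change 0.65, adjusted p = 0.00881, edgeR), and it did not pass when any 1 library was left out (adjusted p 0.0162 to 0.039, edgeR). By DESeq2 with all libraries, Neo1 did not pass (adjusted p = 0.0419).

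Of the 3 tested genes for withholding iron, Slc22a17, a receptor of lipocalin, rose from 7.17 ± 0.465 to 16.3 ± 6.79 CPM (SD, n = 3, adjusted p = 0.00699, edgeR). Its 3 LPS + GSK-J4 libraries had 10.9, 14.1 and 24 CPM, with replicate 3 the highest. Its log2 fold change was 1.19, and without LPS + GSK-J4 replicate 3 it was 0.81 (adjusted p = 0.0374, edgeR). It passed without LPS + GSK-J4 replicate 1 and with no other library left out. By DESeq2 with all libraries, Slc22a17 did not pass (adjusted p = 0.0203).

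Of the 16 tested haem genes 14 had a negative log2 fold change (median -0.254), beside 5071 of the 10133 genes tested. All 10 microglial markers were negative too (median -0.406). Among the haem genes, 1 passed. This was the haem exporter Flvcr1, listed in the files as Mfsd7b, which fell from 78.0 ± 7.66 to 47.1 ± 2.10 CPM (SD, n = 3, log2 fold change -0.73, adjusted p = 0.00105, edgeR). Without LPS + GSK-J4 replicate 2 its adjusted p was 0.0106. Hmox1, the haem oxygenase that frees iron from haem, had 3120, 2910 and 3050 CPM under GSK-J4 alone against 2000, 2160 and 3180 CPM with LPS, and is named after its values were seen. LPS + GSK-J4 replicate 3 lay above all GSK-J4 libraries and the other two far below them. Its log2 fold change was -0.31 (adjusted p = 0.138, edgeR), and without LPS + GSK-J4 replicate 3 it was -0.54 (adjusted p = 6.11e-05, edgeR). Without LPS + GSK-J4 replicate 1 it was -0.18 (adjusted p = 0.418, edgeR) and without LPS + GSK-J4 replicate 2 it was -0.22 (adjusted p = 0.414, edgeR).

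In the mitochondrial list, 1 gene of 22 tested rose and 1 fell. Slc25a37, mitoferrin, which carries iron into mitochondria, rose from 42.5 ± 6.07 to 88.4 ± 5.13 CPM (SD, n = 3), which is on the log2 scale a change of 1.05 (SE 0.14, adjusted p = 6.19e-05, edgeR). The groups did not overlap, with 47, 44.9 and 35.6 CPM against 89.4, 82.8 and 92.9 CPM. Hscb, a co-chaperone of iron-sulphur cluster assembly, fell from 15.8 ± 0.863 to 6.71 ± 0.748 CPM (log2 fold change -1.23, SE 0.24, adjusted p = 0.00122, edgeR), on 15 to 72 counts a library. Slc25a37, Hscb, Slc39a14 and Slc40a1 passed in each of the 14 alternative settings.

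**Figure D5:**
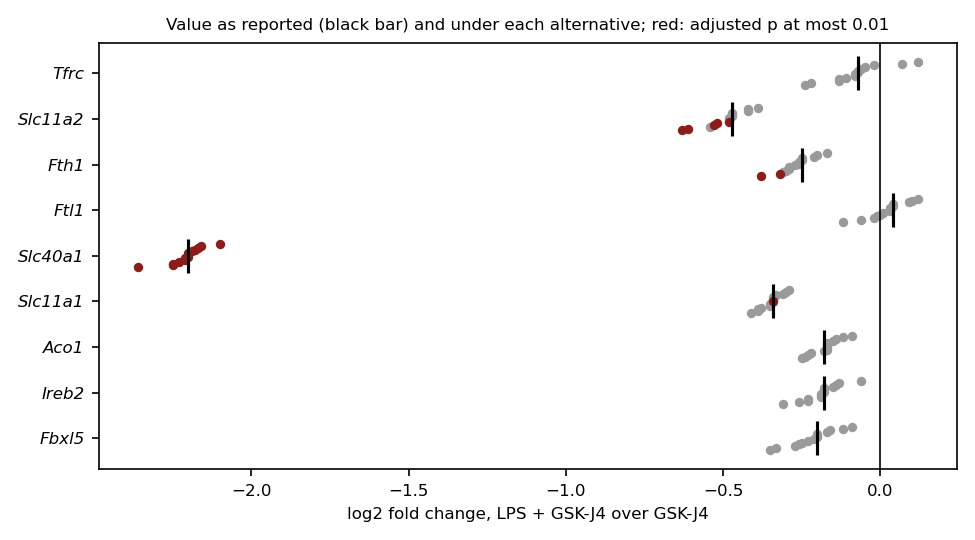
Log2 fold change of LPS + GSK-J4 over GSK-J4 (horizontal axis) for the 9 tested iron genes, as reported (black bars) and under each of 14 alternative settings (points, red at an adjusted p of at most 0.01). Slc40a1 stays between -2.36 and -2.10, red in each, whereas Slc11a2 is red in 5 settings, Fth1 in 2 and Slc11a1 in 1.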

How the data were processed

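RNA was depleted of rRNA, made into libraries with a directional kit and sequenced from both ends. Per the labels, reads were trimmed with Trimmomatic 0.33 and aligned to mm10 with STAR 2.5.1. The authors deposited raw counts per gene for each library, without normalization, in columns for either strand, the sense strand and the reverse strand of the kit. The reverse-strand counts were used, and the antisense column held 0.966 to 1.38% of stranded counts. The annotation used for counting is not given in the sources used here, and positions, exon lengths and UTRs are from GENCODE vM21.

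Groups and replicate numbers came from the titles. The 3 libraries of a group are described as independent experiments, and no 2 of them agreed within sampling noise. The tests ran under R 4.3.3. In edgeR 4.0.16, which builds on limma 3.58.1, genes were filtered by filterByExpr (minimum count 10, minimum total 15), scaled by TMM and tested by the quasi-likelihood method with robust fitting and no covariates, adjusted by Benjamini-Hochberg over all 10133 genes tested. The thresholds of the study ask for an adjusted p of 0.01 or less together with a log2 fold change of 1.5 or more in size. The script was tested on simulated data. Ratios used counts plus 0.5 and a two-sided exact permutation test, which cannot go below 0.1.

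The alternatives were unstranded counts, DESeq2 size factors in edgeR, the DESeq2 1.42.0 Wald test (DESeq2 was also used by the authors), no filter, at least 10 counts in every library, the replicate number as a block, each library left out, both libraries numbered 3 left out, removal of Rn45s, Mir6236 and Lars2, and an adjusted p of at most 0.05. The members, lists and tests were chosen with earlier results of these data known. Genes named are the 10, up to 4 others per iron list that passed by smallest adjusted p, any others of these lists at the study thresholds, and defining or absent markers. Hmox1, Hamp, Csf1r, Cx3cr1, Nfkbia, Il6, the further astrocyte, oligodendrocyte, neuron and endothelial markers and the added Slc40a1 ratios fall outside this rule and were named after their values were seen. Figures were drawn with matplotlib 3.10.9 in Python 3.11.15.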

Additional observations from a re-analysis of the deposited data

Results flagged for a closer look

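The antisense column of Slc11a2, which no comparison used, held 2, 5 and 0 counts in GSK-J4 replicates 1, 2 and 3 and 3 counts in each LPS + GSK-J4 library, 0.624% of all its counts. Its share was higher in each LPS + GSK-J4 library than in any GSK-J4 library, on counts near the limit of 3, and Gm5475 is annotated on the opposite strand there.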

How the results depend on the processing

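Slc40a1 kept its direction and passed in all 14 alternative settings, and the counts at the thresholds of the study (0 higher, 1 lower) did not change in any of them. The number of listed genes that fell, 1 as reported, was 2 with DESeq2 and 2 with no filter (Slc11a2 added), 3 without both libraries numbered 3 (Slc11a2 and Fth1 added) and 3 at an adjusted p of at most 0.05 (Slc11a2 and Slc11a1 added), and it ranged from 1 to 3 with single libraries left out. For the iron pathway lists, the number that rose, 5 as reported, was 2 with DESeq2 and 2 to 5 with single libraries left out. The number that fell, 5 as reported, was 8 with no filter, 11 without both libraries numbered 3 and 2 to 10 with single libraries left out. The sign of Ftl1 reversed with DESeq2 (-0.01), with no filter (-0.02), without both libraries numbered 3 (-0.06) and without LPS + GSK-J4 replicate 3 (-0.12), and that of Tfrc without GSK-J4 replicate 1 (0.07) and without LPS + GSK-J4 replicate 3 (0.12). With single libraries left out Tfrc ranged from -0.24 to 0.12 and Ftl1 from -0.12 to 0.12. None of these values passed. The cause was not tested. The median log2 fold change of all genes stayed between -0.0546 and 0.0069 over the alternatives.

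The replicate numbers are shared by the groups, but the labels do not say that they pair cultures. Deviations of same-numbered libraries correlated at -0.010, 0.117 and 0.295, and 3 of 6 libraries correlated best with their own number. With the replicate block, 3 listed genes fell (Slc40a1, Slc11a2 at -0.48 and Slc11a1 at -0.34), and 9 genes of the iron pathway lists fell and 7 rose. Over all genes the block moved the count that rose from 853 to 1259 and the count that fell from 553 to 1016. Depth limits the low genes: 25 genes of the iron pathway lists, Lcn2 and Hamp among them, had too few counts to be tested.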
